A study of Mus musculus with 153 samples.

Results

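The genes of the proteasome were followed in tail skin of 70 female and 81 male backcross mice. The members were chosen by name: every gene whose symbol begins with Psma, Psmb, Psmc, Psmd, Psme or Psmg and that has a probe set assigned to it alone, except the immunoproteasome subunits Psmb8, Psmb9 and Psmb10. This gave 45 of the 18810 genes measured. They comprise 6 subunits of the 20S alpha ring, 7 of the 20S beta ring, 6 ATPases and 11 other subunits of the 19S cap, 4 activator genes, 7 assembly chaperones, 2 tissue-specific 20S subunits (Psma8 and Psmb11) and 2 genes that only share the name (Psmc3ip and Psme3ip1, which encode no subunit). The 30 alpha, beta, ATPase and other cap subunits are called core subunits here. Psma4, the remaining alpha subunit, was read only by a probe set that also carries another gene's symbol, and it is not analysed here.

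The 26S proteasome degrades proteins marked with ubiquitin. Its 20S core is a stack of rings, with outer alpha rings that gate the entry and inner beta rings that hold the proteolytic sites in Psmb5, Psmb6 and Psmb7. The 19S cap binds ubiquitin chains, removes them and unfolds the substrate with a ring of ATPases encoded by Psmc1 to Psmc6. In many cells the transcription factor Nfe2l1 raises proteasome genes together when the proteasome is inhibited, and interferon gamma induces the PA28 activator genes Psme1 and Psme2 together with the immunoproteasome subunits.

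Mus spretus males were crossed with FVB/N females that carried no functional Hras, and the F1 daughters were then mated with FVB/N males that were Hras -/- or Hras -/+. The backcross mice studied here were labelled WT (Hras +/+, 52 females and 62 males) or HET (Hras +/-, 18 females and 19 males), and all were untreated and 8 weeks old. By this cross the functional Hras copy of an F1 mother came from Mus spretus, so each WT mouse carries a Mus spretus copy, as does a HET mouse that took its functional copy from its mother. At any autosomal locus a backcross mouse carries either FVB/N copies alone or 1 FVB/N and 1 Mus spretus copy. Every mouse is a separate animal with 1 array, and the arrays were spread over plates 1, 2 and 3 with 49, 46 and 56 mice.

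The values are log2 intensities per probe set, and the number of mice limits their precision. Array medians ran from 4.67 to 4.89. A further 2 arrays that the labels mark as outliers were left out. The 7 keratinocyte markers, among them keratins of the basal and suprabasal epidermis, had mean levels between 8.52 and 12.2, and skeletal muscle, fat, fibroblast and macrophage markers were also measured above the lower quartile of the arrays, apart from 1 muscle and 1 fat marker. Of 4 T lymphocyte markers 2 were below it. In whole skin, fewer cells of a type and less RNA per cell cannot be told apart. No value of Hras itself is given here, and the genotype labels were not checked against it.

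Tail skin gave a clear reading for nearly all of the machinery. The mean level of 42 of the 45 members, and of all 30 core subunits, was above 5.45, the median of all gene means. The brightest probe sets were those of the beta subunits Psmb3, Psmb4 and Psmb5. Psmb3, a beta subunit without a proteolytic site, lay between 10.62 and 11.62 with a median of 11.09. Psmb4, also without one, lay between 10.38 and 10.95 with a median of 10.72, and Psmb5, which carries the chymotrypsin-like site, between 10.02 and 10.87 with a median of 10.39. The dimmest were Psma8, the alpha subunit of the testis, between 1.73 and 3.25 with a median of 2.19, Psmb11, the beta subunit of the thymic cortex, between 2.21 and 3.51 with a median of 2.73, and the assembly chaperone Psmg3 between 3.08 and 4.85 with a median of 4.05. The means of Psma8 and Psmb11 lay below the lower quartile of the arrays, so these readings were near background. Probe sets differ in brightness, so these levels do not rank the transcripts.

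By the median, the members varied less from mouse to mouse than all genes. After plate, sex and genotype had been fitted, the residual standard deviation of the members had a median of 0.16 on the log2 scale, against 0.22 over all genes and 0.19 over the genes above the median gene mean. The steadiest members were Psme4, an activator of the core particle, with a residual standard deviation of 0.10, and the cap subunits Psmd11 and Psmd1, each with 0.11. The most variable were the activator gene Psme2 with 0.29, Psmc3ip, a meiotic recombination factor, with 0.29, and the alpha subunit Psma5 with 0.28. Within the core subunits the range ran from 0.11 to 0.28.

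The first comparison asked whether mice with 1 functional Hras copy differed from WT mice. No proteasome gene was called at an adjusted p under 0.05 (limma, all 18810 genes), against 0.112% of all genes called (0.0319% higher and 0.0797% lower in HET mice). An unadjusted p under 0.05 was found for 1 of 45, against 6.57% of all genes. The fitted HET minus WT difference had a median of 0.01 over the members and ranged from -0.05 to 0.11, with 27 of 45 above 0 against 49.9% of all genes. Its median was -0.01, 0.03 and 0.03 on plates 1, 2 and 3 alone, -0.01 in males alone and 0.03 in females alone, and no member was called in these fits. An unadjusted p under 0.05 was found for 8 of 45 members in females alone, against 6.16% of all genes there, and for 1 of 45 in males alone, against 5.11%. The 95% confidence intervals of the members reached no further than -0.15 on the lower side and 0.21 on the upper. In simulated data of this design, 13 of 100 genes changed by 0.1 and 68 of 100 changed by 0.2 were recovered for genotype. For such genes differences near 0.1 were mostly not detectable. They were drawn at random from all genes, whose residual standard deviation had a median of 0.22, against 0.16 for the members. The shares therefore do not give the power for the members themselves.

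The gene with an unadjusted p under 0.05 was Psmd6, a structural subunit of the 19S lid. It lay between 8.20 and 9.44 with a median of 8.83 in WT mice, and between 8.62 and 9.41 with a median of 9.02 in HET mice. The ranges overlapped almost entirely. The fitted difference was 0.11 ± 0.05 (SE) with a limma adjusted p of 0.679. Psma3, an alpha subunit, lay between 8.50 and 9.10 (median 8.83) in WT mice and between 8.47 and 9.31 (median 8.88) in HET mice, a difference of 0.05 ± 0.03 with a limma adjusted p of 0.761. Psmd10, the X-linked cap assembly chaperone also known as gankyrin, lay between 6.71 and 7.76 (median 7.24) in WT mice and between 6.84 and 7.65 (median 7.30) in HET mice, a difference of 0.09 ± 0.04 with a limma adjusted p of 0.762. Neither of these passed the threshold, and in each the ranges of the genotypes overlapped.

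On chromosome 7, Psmd13, a subunit of the 19S lid, is 15 measured genes before Hras. It lay between 7.12 and 7.79 with a median of 7.46 in WT mice and between 7.19 and 7.68 with the same median of 7.46 in HET mice. Its difference was 0.00 ± 0.02 with a 95% confidence interval from -0.05 to 0.05 and a limma adjusted p of 0.991. The other members on the chromosome, Psma1, Psmd8 and Psmc4, were 301, 1148 and 1187 measured genes before Hras, and their limma adjusted p-values for genotype were 0.975, 0.991 and 0.912.

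**Figure D1:**
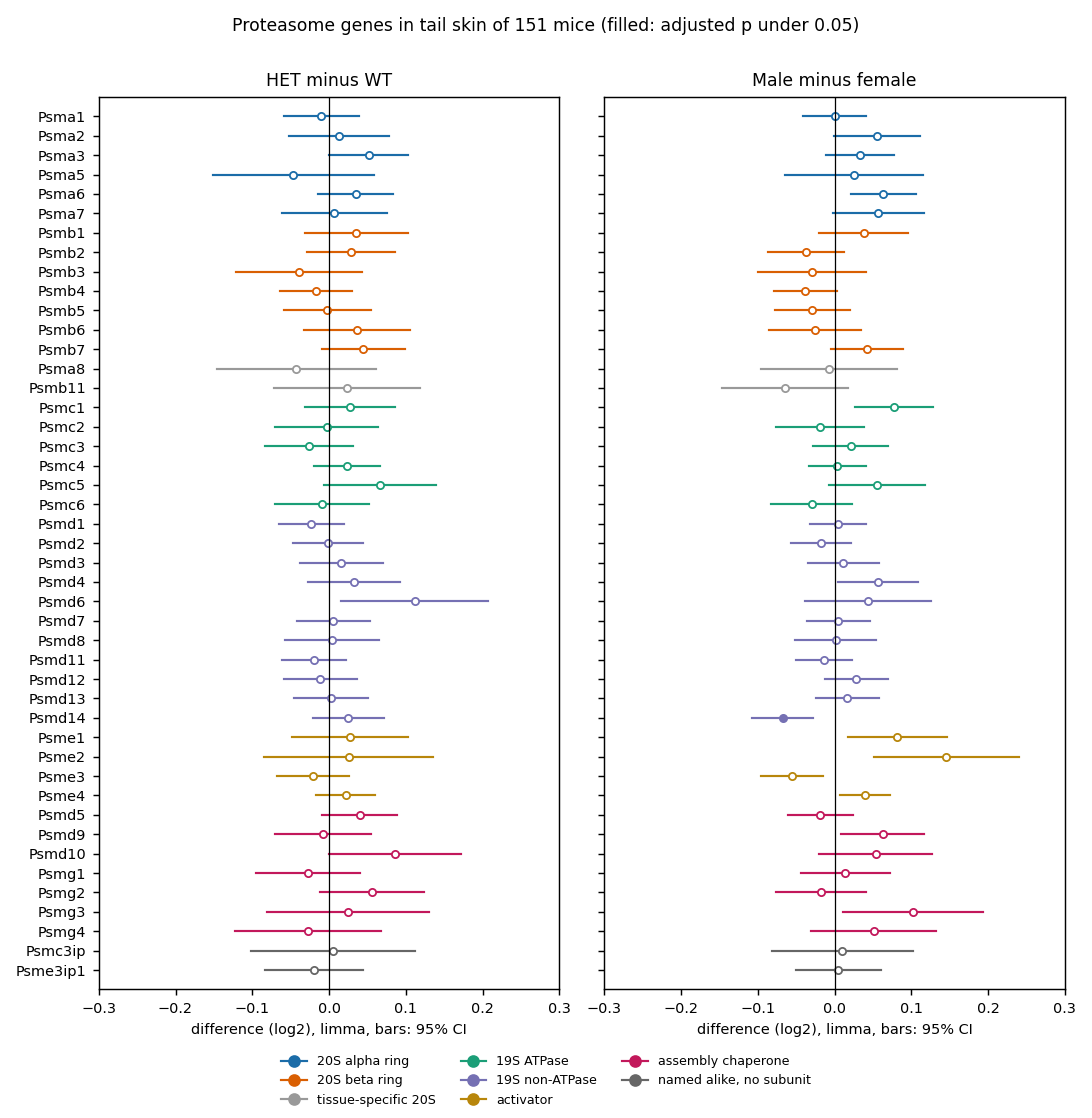
Fitted differences of the 45 members, HET minus WT on the left and male minus female on the right, on the log2 scale with 95% confidence intervals (limma), coloured by role. Filled points have an adjusted p under 0.05, which holds for Psmd14 by sex and for no gene by genotype.

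Sex moved 1 proteasome gene past the threshold. Psmd14, the deubiquitinase of the cap that removes ubiquitin chains, lay between 8.63 and 9.20 with a median of 8.93 in 70 females and between 8.42 and 9.21 with a median of 8.89 in 81 males. The sexes overlapped over nearly the whole range. The male minus female difference was -0.07 ± 0.02 (SE) with a limma adjusted p of 0.0345. It was 1 of 45 members called, against 3.62% of all genes. That is 1 of 45 lower in males against 2.51% of all genes, and 0 of 45 higher against 1.1%. The call was lost when each array was centred on its median (difference -0.055, adjusted p = 0.176), with 4 marker lists as covariates (-0.05, 0.164), in WT mice alone (-0.06, 0.11) and within plates 1, 2 and 3 (0.636, 0.366 and 0.641), where the difference was -0.05, -0.09 and -0.06. The summed log2 level of the 7 fat markers ran from 31.6 to 42.4 (median 36.4) in females and from 30.2 to 40.7 (median 35.2) in males, and that of the 7 keratinocyte markers from 73.4 to 76.2 (median 75.02) in females and from 73.6 to 76.7 (median 75.2) in males. The medians of the 11 muscle markers were 53.9 and 53.4 and those of the 7 fibroblast markers 64.2 and 64.5.

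In all, 10 of 45 members had an unadjusted p under 0.05 for sex, against 16.4% of all genes, 8 with the higher value in males and 2 in females. The difference was above 0 for 29 of 45 members, against 44.9% of all genes, and its median was 0.01. Psme2, a subunit of the PA28 activator, lay between 6.33 and 7.63 (median 6.93) in females and between 6.14 and 7.60 (median 7.08) in males. Its difference was 0.15 ± 0.05 (SE), the largest among the members, with a limma adjusted p of 0.0631. Its partner Psme1 lay between 6.64 and 7.59 (median 7.10) in females and between 6.72 and 7.62 (median 7.22) in males, a difference of 0.08 ± 0.03 with an adjusted p of 0.159. Over all mice both PA28 genes were therefore read higher in males without passing the threshold. In WT mice alone Psme2 passed, as given below.

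Psmc1, an ATPase of the cap base, lay between 7.77 and 8.45 (median 8.15) in females and between 7.63 and 8.57 (median 8.24) in males, a difference of 0.08 ± 0.03 with a limma adjusted p of 0.0668. The alpha subunit Psma6 lay between 9.14 and 9.74 (median 9.48) in females and between 9.21 and 9.88 (median 9.53) in males, a difference of 0.06 ± 0.02 with an adjusted p of 0.0756. The activator gene Psme3, which encodes the nuclear PA28 gamma, lay between 8.81 and 9.37 (median 9.14) in females and between 8.84 and 9.36 (median 9.09) in males, a difference of -0.06 ± 0.02 with an adjusted p of 0.114. The sexes overlapped in all 3 genes. In WT mice alone Psma6, Psme2 and Psmc1 passed, with differences of 0.10, 0.21 and 0.11 and limma adjusted p-values of 0.00555, 0.0115 and 0.0278. After quantile normalization they passed as well, with limma adjusted p-values of 0.0332, 0.0407 and 0.0293. With the muscle, fat, fibroblast and keratinocyte lists as covariates none of the 3 passed, and the differences were 0.05, 0.13 and 0.03 with limma adjusted p-values of 0.263, 0.167 and 0.613. Within a single plate none passed either. The other probe set of Psmc1 had an r of 0.654 with the one used. With the mean of its probe sets the Psmc1 difference over all mice was 0.069, with a limma adjusted p of 0.117.

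The difference between the sexes was then compared between the genotypes. No member was called for this interaction in limma, and no gene at all (0 of 18810, or 0%). At an unadjusted p under 0.05 there were 7 of 45 members, against 4.76% of all genes, and in all 7 the male minus female difference was lower in HET than in WT mice. They were Psma2, Psma3, Psma6, Psmb6, Psmc1, Psmd7 and Psme2. The 4.76% counts both directions, and the share of all genes in this direction alone is not given. Over all members the interaction was above 0 for 13 of 45, against 52.4% of all genes. Most of the 7 are core subunits, which varied together across mice as given below, so they do not count as independent. For Psma6 the interaction was -0.16 ± 0.05 (SE), for Psme2 -0.29 ± 0.11 and for Psmc1 -0.13 ± 0.06, with a limma adjusted p of 0.998 for each. In WT mice alone their male minus female differences were 0.10, 0.21 and 0.11, each smaller in size than the interaction. By these point values the higher reading of these genes in males lay in WT mice. HET mice were not fitted alone and no interaction was called, so a difference between the genotypes was not shown. The simulated data recovered 0 of 100 genes with an interaction of 0.1 and 10 of 100 with one of 0.2. This design thus had little power for it in genes drawn at random from all genes.

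**Figure D2:**
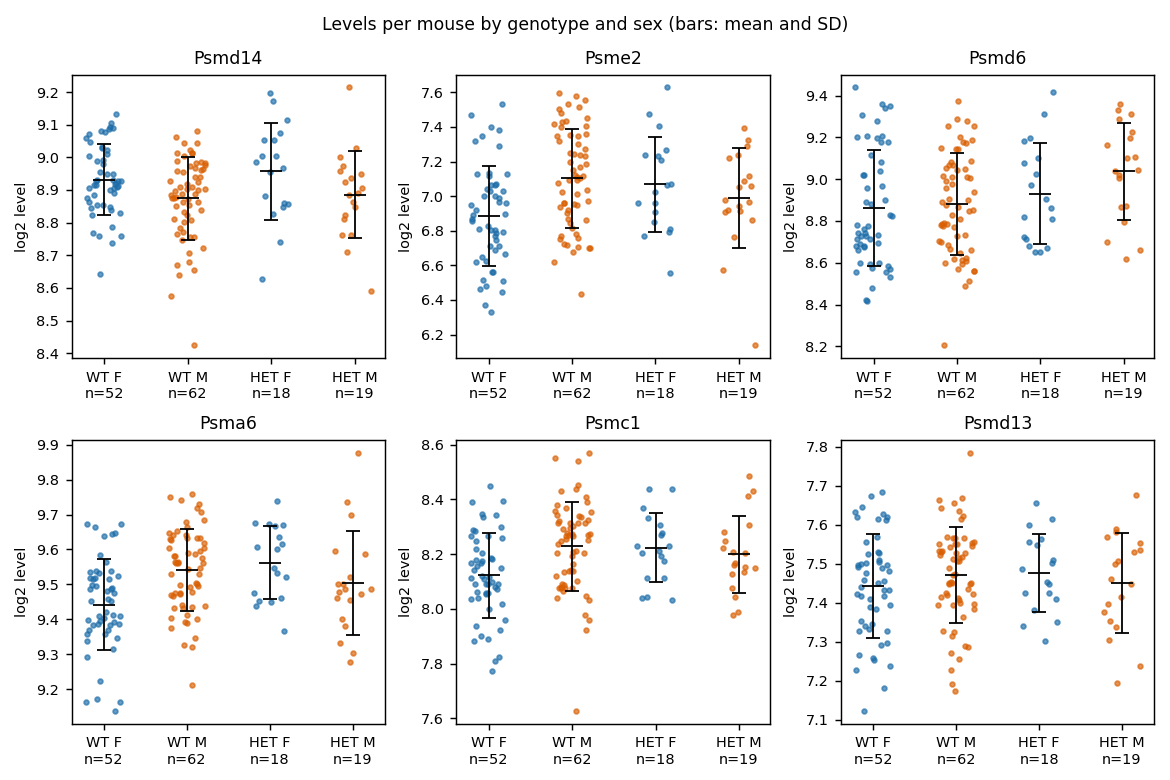
Log2 level of 6 members in each mouse by genotype and sex (F females, M males), with the mean and SD of each group. The groups overlap in every panel; in WT mice Psme2, Psma6 and Psmc1 lie higher in males, while Psmd13, the member nearest to Hras, has a median of 7.46 in both genotypes.

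Plates gave no proteasome gene past the threshold. By the limma F test over the 3 plates 0 of 45 members were called, against 0.0213% of all genes. At an unadjusted p under 0.05 there were 3 of 45 members, Psmd14, Psma5 and Psme3, against 0.808% of all genes. That share of all genes is below 5%, and no label says whether the deposited values had been adjusted for plate. Psma5 had medians of 7.87, 8.01 and 8.01 on plates 1, 2 and 3, within ranges of 7.16 to 8.49, 7.37 to 8.59 and 7.32 to 8.59. Psmd14 had medians of 8.96, 8.89 and 8.88, and Psme3 medians of 9.14, 9.07 and 9.08. Their unadjusted p-values were 0.0114, 0.00787 and 0.0258, and the next members were Psmc2 (medians of 7.53, 7.62 and 7.61) with 0.0563 and Psmb5 (medians of 10.40, 10.41 and 10.35) with 0.162. All adjusted p-values of the members were 1 in this limma F test.

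Core subunits varied together from mouse to mouse. Over their 435 pairs, the residuals after plate, sex and genotype had a mean Pearson r of 0.204 and a median of 0.221 across the 70 females and 81 males, and 360 of the pairs were positive. The mean over all pairs of genes was 0.00655, and over pairs of genes above the median gene mean 0.0219. An r of at least 0.3 was reached by 155 of the 435 core pairs (35.6%), against 1.6% of all pairs of genes and 4.53% of pairs of genes above the median gene mean. An r of -0.3 or less was reached by 2 core pairs (0.46%), against 0.761% and 2.2%. The mean r of the core pairs was 0.210, 0.191 and 0.215 within plates 1, 2 and 3, and 0.193 as Spearman's rho.

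The value depended on how the arrays were scaled. It was 0.296 with each array centred on its median and 0.178 after quantile normalization, where the mean over all pairs of genes was 0.0241 and 0.00304. The correlation of the core subunits with the array median ran from -0.395 to 0.14 and had a mean of -0.156, against a mean of 0.0284 over all genes, and with the array median as a covariate, a setting added after seeing the data, the mean r was 0.187. The mean residual of each cell type marker list was set against the core subunits as well. The mean r was -0.0876 for 11 skeletal muscle markers, -0.125 for 7 fat, -0.073 for 7 fibroblast, 0.0374 for 7 keratinocyte, -0.0698 for 6 macrophage and -0.0677 for 4 T lymphocyte markers. Single core subunits ranged more widely, from -0.476 to 0.235 for the fibroblast list and from -0.365 to 0.429 for the keratinocyte list. With the muscle, fat, fibroblast and keratinocyte lists removed, the mean r of the core pairs was 0.209.

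**Figure D3:**
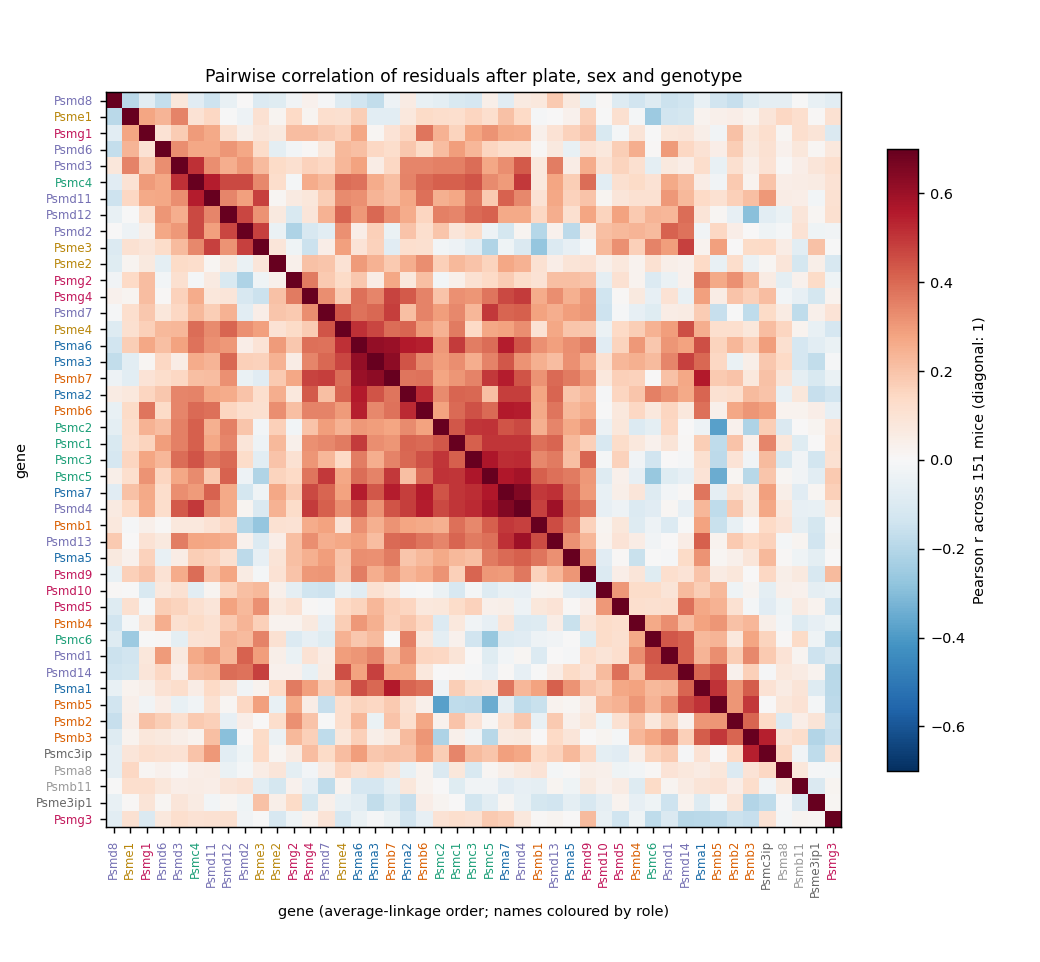
Pearson r of every pair of the 45 members across the 70 females and 81 males, after plate, sex and genotype, in average-linkage order with names coloured by role. A block of alpha subunits, ATPases and cap subunits around Psma6, Psma7 and Psmd4 is mostly positive, while Psmb5 is below 0 with Psmc2 (r = -0.38) and Psmc5 (r = -0.35).

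The alpha ring had the highest mean r of the modules. All 15 pairs of its subunits were positive, with a mean r of 0.417 and a range from 0.195 to 0.618. The 15 pairs of ATPases had a mean r of 0.279, alpha subunits with ATPases 0.276 over 36 pairs, and alpha with beta subunits 0.267 over 42 pairs. Beta subunits among themselves had a mean r of 0.191 over 21 pairs, other cap subunits 0.179 over 55 pairs, and beta subunits with ATPases 0.118 over 42 pairs. The assembly chaperones, which leave the finished particle, had a mean r among themselves of 0.0695 over 21 pairs. Psma6, Psma2 and Psma7, all of the alpha ring, had the highest mean r to the core subunits, at 0.333, 0.308 and 0.301. Psmd8, Psme3ip1 and Psmg3 had the lowest, at -0.0551, -0.045 and -0.0063. Psmd8, a subunit of the 19S lid, was the 1 core subunit whose mean r lay below 0.

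The pairs with the highest r mostly joined genes on different chromosomes, as do most core pairs, of which only 36 of 435 share one. The pair with the highest r was Psma7 of the alpha ring and Psmd4, the cap's ubiquitin receptor, on chromosomes 2 and 3, with r = 0.646 and rho = 0.653. Its permutation p was 1e-05, the smallest that 100000 draws can give, and 7.6e-05 after Benjamini-Hochberg adjustment over 990 member pairs. When the 2 mice with the most extreme Psma7 values were left out its r was 0.635, and it was 0.585, 0.637 and 0.705 within the 3 plates. Next came Psma3 with Psmb7, the trypsin-like beta subunit, at r = 0.624 and rho = 0.605. Psma3 with Psma6, both on chromosome 12 and 53 measured genes apart, had r = 0.618 and rho = 0.596. Psma6 with Psmb7 had r = 0.603 and rho = 0.597, and Psmd13 with Psmd4 had r = 0.592 and rho = 0.539. These 4 pairs had the same permutation p-values as the first, and leaving out the 2 mice gave r = 0.589, 0.58, 0.605 and 0.564. The 36 core pairs that share a chromosome had a mean r of 0.209, against 0.203 for the other core pairs.

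A few subunits of the same particle varied in opposite directions. Psmb5 and the ATPase Psmc2 had r = -0.379 and rho = -0.403, with the same smallest permutation p of 1e-05 and an adjusted p of 7.6e-05, and r = -0.256, -0.407 and -0.335 within plates 1, 2 and 3. Psmb5 and the ATPase Psmc5 had r = -0.348 and rho = -0.392 (permutation p = 2e-05, adjusted 0.00013), and -0.279, -0.424 and -0.23 within plates. With the 2 mice of most extreme Psmb5 value left out the values were -0.42 and -0.419. Psmb5 was positive with 18 of the other 29 core subunits, with a mean r of 0.0609 over the 29 and values as high as 0.503 for Psma1 and 0.464 for Psmd14. Psmb3 with Psmd12 had r = -0.292 (rho = -0.275, permutation p = 0.00029, adjusted 0.0013), Psmb1 with Psme3 -0.269 (rho = -0.259, permutation p = 0.00079, adjusted 0.003) and the ATPases Psmc5 with Psmc6 -0.267 (rho = -0.284, permutation p = 0.00095, adjusted 0.0035). Without the 2 mice these became -0.269, -0.232 and -0.311. Psmb1 with Psme3 rested mainly on plate 2 with r = -0.579, against -0.0592 and -0.118 on plates 1 and 3. The second probe set of Psmb1 had an r of only 0.25 with the one used, so the reading of this gene depends on the probe set.

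Outside the members, the genes with the highest mean r to the 30 core subunits across the same mice were led by Vcp, the ATPase that extracts ubiquitinated proteins and hands them to the proteasome, at 0.341 and positive with 26 of the 30. Dpy30 (0.323), Timm8a1 (0.319), Nip7 (0.316), Txnl1 (0.31), Pno1 (0.308), Ddx21 (0.305), Acp1 (0.301), Denr (0.3002) and Ecpas (0.298) followed. Txnl1 encodes a thioredoxin that sits on the 19S cap and Ecpas an adaptor that binds the 26S particle, while Nip7, Pno1 and Ddx21 take part in making ribosomes. The opposite end was led by Nrbp2 at -0.287, Senp7, a SUMO protease, at -0.282, and Sh3d19 at -0.282.

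A list of 27 genes that work with the proteasome was also followed, of which 18 were measured. A mean r to the core subunits above 0 was found for 16 of the 18. The share of all genes is not given for this count, so it is not read as a trait of the list. After Vcp and Ecpas came Sem1, a small lid subunit not named by the symbol rule, at 0.253, and the cap deubiquitinase Uchl5 at 0.248. No gene of this list was called for genotype or for sex in limma, against 0.112% and 3.62% of all genes. An unadjusted p under 0.05 was found for 0 and 3 of the 18, against 6.57% and 16.4% of all genes. Some members had a closer match outside the list. Psmc5 had r = 0.765 with Tmem14c, a mitochondrial membrane protein gene, and 0.719 with Vcp. Psma7 had r = 0.71 and Psmd4 r = 0.7002 with Uqcrq, a subunit of respiratory complex III. Within the 3 plates these were 0.761, 0.843 and 0.692 for Psmc5 with Tmem14c, 0.734, 0.785 and 0.602 for Psma7 with Uqcrq, and 0.713, 0.714 and 0.666 for Psmd4 with Uqcrq. These genes were picked as the closest of 18810, so their r is a description.

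The level of the transcript of Nfe2l1, the factor that induces proteasome genes under inhibition, had a mean r of only 0.0461 with the core subunits. Of 96 pairs in this family, which sets Nfe2l1 and its relative Nfe2l2 against the 45 members and the PA28 genes against the immunoproteasome, 6 with Nfe2l1 had an adjusted permutation p under 0.05. All 6 were positive and 2 of them were core subunits. The highest was Psmc3ip, which encodes no subunit and lies on chromosome 11 like Nfe2l1, with r = 0.42 (adjusted permutation p = 0.00096). Psme3, also among the 6, lies on chromosome 11 as well. The smallest r called in the family was 0.21 in size, and 5.52% of all other genes had an r with Nfe2l1 at least that high and 2.45% one as far below 0. The closest core subunit was Psmb3, on the same chromosome 11, with r = 0.339 and rho = 0.395 (permutation p = 4e-05, adjusted 0.0016, 0.386 without the 2 farthest mice). Within plates 1, 2 and 3 it was 0.487, 0.439 and 0.225. Nfe2l2, the antioxidant response factor, had a mean r of -0.109 with the core subunits, and 12 of its pairs had an adjusted p under 0.05, 10 of them negative and 2 positive. Of all other genes 3.42% had an r with Nfe2l2 of -0.21 or less and 6.35% one of 0.21 or more. Psma8, read near background, was among the pairs called with each factor (adjusted permutation p = 0.016 with Nfe2l1 and 0.049 with Nfe2l2). The lowest was Psmb7 with r = -0.324 and rho = -0.349 (permutation p = 5e-05, adjusted 0.0016, -0.357 without the 2 farthest mice) and -0.43, -0.289 and -0.248 within plates.

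**Figure D4:**
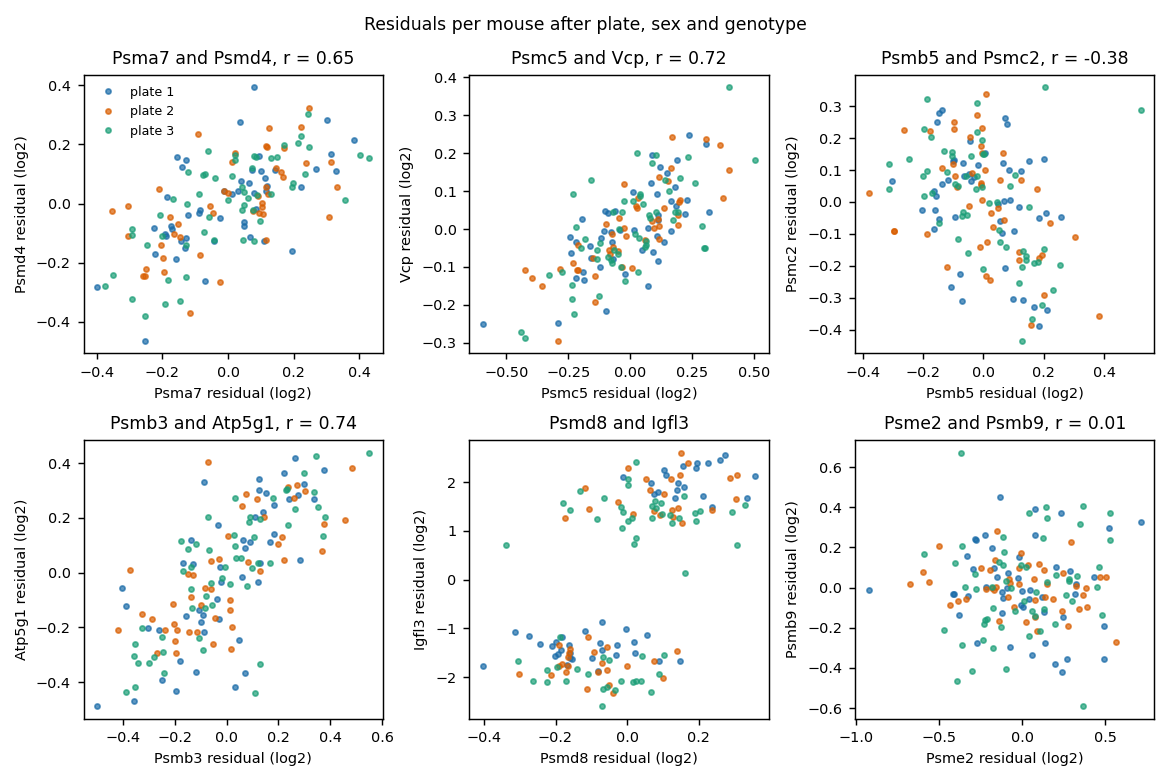
Residuals of 6 gene pairs on the log2 scale, 1 point per mouse, coloured by plate. Psma7 with Psmd4 and Psmc5 with Vcp rise together, Psmb5 and Psmc2 run in opposite directions, Psmb3 follows Atp5g1, Igfl3 splits into groups of 75 and 76 mice, and Psme2 with Psmb9 has r = 0.0052 in all and -0.0758, -0.261 and 0.195 within plates 1, 2 and 3.

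Shared promoter letters were looked up for the subunits that moved together. RefSeq promoter windows of 300 bases, from 250 before a gene's start to 50 after it (build GRCm38.p6), were given for 37 of the 45 members and 24 of the 30 core subunits, some with several starts. TTCCGG, a sequence bound by Ets factors, was searched on both strands and lay in a window of 14 of 24 core subunits (58.3%), against 32.2% of the measured genes above the median gene mean and 16.7% of all genes in the table. Counted per window, it was in 15 of 26 core windows (57.7%) and in 27.6% of the windows of the genes above the median gene mean. The windows of the core subunits held a median of 55.8% G and C and 20 CpG pairs, those of the genes above the median gene mean 61.3% and 21, and those of all genes with a window 52.7% and 7. TGACNNNGC, the core of the antioxidant response element bound by Nfe2l1 and Nfe2l2, lay in 16.7% of core subunits against 17% of the genes above the median gene mean, and CCAAT, the box bound by NF-Y, in 41.7% against 42.2%. A match says only that the letters are there. The letters were not in the windows of the remaining core subunits. Among these were Psma7, Psmb6, Psma3, Psmc4 and Psma1, which also varied with the other core subunits. Psmb7 and Psmc3 were among the core subunits without a window. Any link of these motifs to the correlations was not tested. As examples, the stretches around TTCCGG are shown for Psma6, Psmd4, Psmc5 and Psmc2, and the antioxidant element for Psmb5. That element also lay in windows of Psmb6, Psmd12, Psmc6, Psme4 and Psmd9. Each reads 5′ to 3′ along the gene's strand with the motif in capitals, which appears as CCGGAA where it lies on the opposite strand. They are at chr12:55398750-55398799 (plus strand, 53 bases before the second start of Psma6), chr3:95042714-95042763 (minus strand, 127 bases before the start of Psmd4, where the overlapping CCGGAA makes the motif match both strands), chr11:106256068-106256117 (plus strand, 95 before Psmc5), chr5:21785170-21785219 (plus strand, 83 before Psmc2) and chr14:54618012-54618064 (minus strand, 47 before Psmb5).
Psma6: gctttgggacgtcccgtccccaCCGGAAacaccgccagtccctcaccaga
Psmd4: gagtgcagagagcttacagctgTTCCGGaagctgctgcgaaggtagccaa
Psmc5: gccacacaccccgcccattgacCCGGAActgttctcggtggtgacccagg
Psmc2: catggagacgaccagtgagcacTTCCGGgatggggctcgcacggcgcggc
Psmb5: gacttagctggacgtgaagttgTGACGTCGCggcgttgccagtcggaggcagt

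The activator genes had a mean r among themselves of 0.118 over 6 pairs, all positive. Psme4 had a mean r of 0.275 to the core subunits and was positive with 29 of the 30. Psme1 and Psme2 encode the alpha and beta subunits of 1 ring and lie 2 measured genes apart on chromosome 14, yet their r across mice was 0.0216 (rho = -0.0127, adjusted permutation p = 0.86). All values of Psme2 rest on the probe set assigned to it alone, with a mean level of 7.01. A brighter probe set, with a mean of 7.89, also carries the symbol Psme2b and was not analysed. The 6 pairs of Psme1 and Psme2 with the immunoproteasome subunits Psmb8, Psmb9 and Psmb10 had a mean r of 0.0194 and ranged from -0.0368 to 0.128. The highest, Psme2 with Psmb10, had rho = 0.12 and a permutation p of 0.12 (adjusted 0.28), and it was -0.0988, 0.102 and 0.38 within plates 1, 2 and 3. The immunoproteasome subunits among themselves had r = 0.195 for Psmb8 with Psmb9, 0.246 for Psmb8 with Psmb10 and 0.0567 for Psmb9 with Psmb10. The levels of these subunits are not given here, so how clearly they were read was not judged. The closest pair of activators was Psme3 with Psme4, at r = 0.285 and rho = 0.271 (adjusted permutation p = 0.0014).

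Some members had many of their closest genes on their own chromosome. For 10 of 45 members the most correlated gene lay on the same chromosome, against 21.8% of all genes, so the members stood near the background. The 10 include Psma6, whose closest gene was another member, Psma3. More than 5 of the 20 closest genes lay on the own chromosome for 9 of 45, against 14.8% of all genes. For Psmd8 on chromosome 7 and Psmc3ip on chromosome 11 all 20 did. For Psmb3 on chromosome 11 it was 18, or 19 with the members left out, and for Psmd10 on X 14. Psmb3 had r = 0.736 with Atp5g1, a subunit gene of the mitochondrial ATP synthase 41 measured genes away, and 0.701, 0.706 and 0.776 within the plates. Psmd10 had r = 0.671 with Gnl3l, 33 measured genes away, and Psmd6 had r = 0.598 with Thoc7, 2 measured genes away. Psmb4 had r = 0.508 with Dram2 on chromosome 3.

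Igfl3, the gene closest to Psmd8, split the mice into separate groups, so no pooled r is given. Residuals of Igfl3 lay between -2.59 and -0.88 in 75 mice and between 0.14 and 2.61 in the other 76. Within these groups the r of Psmd8 with Igfl3 was -0.145 and 0.244. Psmd8 ran from -0.40 to 0.15 among the first and from -0.34 to 0.36 among the second, so its levels overlapped. Genotypes of the mice at these loci were not analysed here, and their part in these correlations was not tested.

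**Figure D5:**
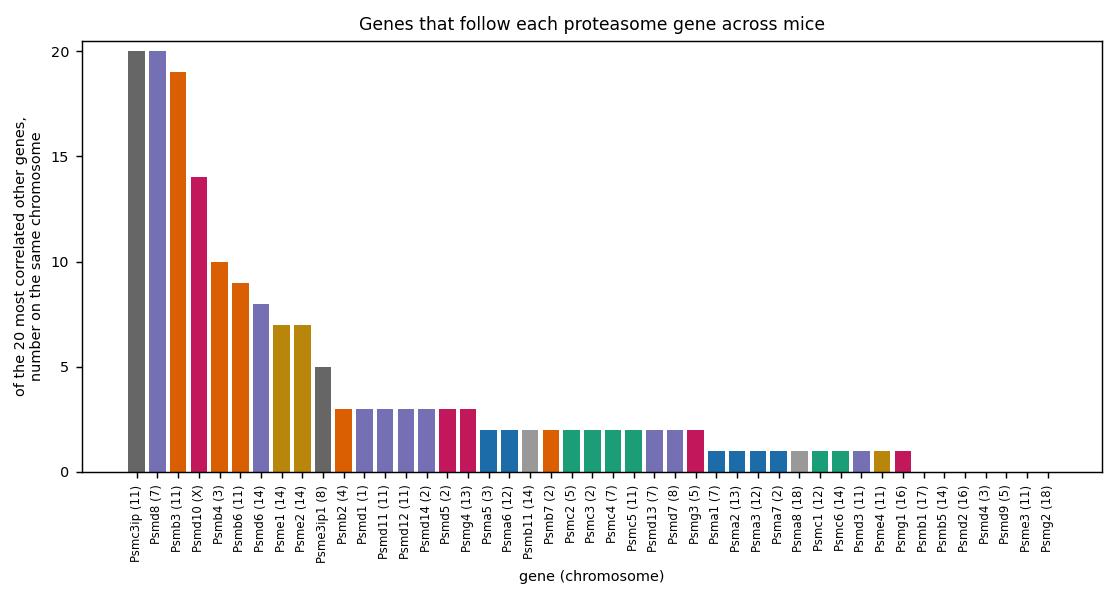
For each member, how many of the 20 most correlated genes, with the members left out, lie on its own chromosome (in brackets), coloured by role. Psmc3ip and Psmd8 have 20, Psmb3 19 and Psmd10 14, while for most members few or none do.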

How the data were processed

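Tail skin RNA of 153 mice was measured on 1 Affymetrix array each. The deposited values are log2 levels per probe set, summarised by RMA, per the submitters' processing notes. The sources used here give neither its version, nor the array's build, nor any adjustment for plate. The table held 35556 rows, 171 of them empty, and 151 arrays (114 WT and 37 HET) were used. Probe sets with 1 gene symbol (21201; 1881 had several and 12303 none) were named through the platform annotation and a RefSeq gene table of GRCm38.p6, which 21168 matched. For each of 18810 genes the probe set with the highest mean was used.

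R 4.3.3 with limma 3.58.1 (lmFit, then eBayes with trend) fitted all genes at once: 1 model held genotype, sex and plate, another also a genotype by sex term. Benjamini-Hochberg adjusted p-values under 0.05 were called. Correlations used residuals of that model in Python 3.11.15 (numpy 2.4.6, scipy 1.17.1, pandas 2.3.3, plots with matplotlib 3.10.9) with two-sided permutation tests of 100000 draws. Scripts were tested on simulated data.

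The members, lists and tests were chosen with earlier results of these data known. Genes named are the members with the smallest p in each comparison, the extremes of level, spread and correlation, the closest other genes, the PA28 and immunoproteasome genes, Nfe2l1 and Nfe2l2. Other genes (Psmd13, Psmb5's partners, Igfl3 and the own-chromosome examples) were picked after their values were seen. Alternatives changed the arrays, scaling, probe set, filter, variance model, marker covariates, plates, sexes and genotypes used.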

Additional observations from a re-analysis of the deposited data

How the results depend on the processing

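No proteasome gene was called for genotype, plate or the genotype by sex term under any alternative run (outlier arrays included, both scalings, mean of probe sets, bright genes alone, no variance trend, marker covariates, no genotype and sex terms for plate, and single plates or sexes where they apply). The number called for sex, 1 in the report, was 2 with the outlier arrays, 2 after centring, 4 after quantile normalization, 4 among genes above the median gene mean, 3 in WT mice alone, and 0 with marker covariates and within each of plates 1, 2 and 3; the cause was not tested. The mean r of core subunits, 0.204, was 0.296 after centring, 0.178 after quantile normalization and 0.187 with the array median as a covariate. The PA28 and immunoproteasome mean of 0.0194 was 0.104 on plate 3. Psma3 turned to -0.0008 for HET minus WT in males alone. No paired analysis was possible because the labels give no replicate numbers shared between groups.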

Other observations

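The 2 arrays labelled as outliers, both of WT mice, kept most members within the range of the arrays used. The first had 1 of 45 members below that range, Psme3, and none above it. The second had 4 above it, Psmb6, Psmc3, Psmd10 and Psme4, and none below it.

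Of the members, 6 had more than 1 probe set assigned to them alone. The correlation across mice of the other probe sets with the one used was 0.958 and 0.887 for Psma3, 0.843 for Psmb3, 0.799 for Psmd2, 0.654 for Psmc1, 0.591 for Psma5 and 0.248 for Psmb1.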
